A study of Homo sapiens with 13 samples.

Results

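In Nalm6 cells, a long-established line grown from a human B-lineage lymphoblastic leukaemia, 420 genomic regions carried a TCF7L2 peak in every TCF7L2 library and no LEF1 peak in any LEF1 library. They are called TCF7L2-only regions here. Members were selected on the presence of peaks in the authors' full lists: TCF7L2 peaks that overlapped by at least 1 bp were merged into 1378081 regions, 9394 of these held a peak in all 6 TCF7L2 lists, and the 420, or 4.47% of the 9394, met none of the peaks in the 6 LEF1 lists. The other 8974 are called regions with LEF1. The number depends on how complete the lists are. Without prednisolone replicate 3, the shortest TCF7L2 list, 787 regions met the rule, or 5.94% of the regions then shared. With TCF7L2 peaks held to a −log10 q of at least 2 the count was 86, or 8.62% of the regions then shared.

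Peaks came from CUT&RUN, in which an antibody bound to its target on chromatin directs a nuclease to cut the DNA around it. The cells had no genetic change named in the labels and were grown in medium with charcoal-stripped serum, which holds little steroid hormone. Each antibody was used on 3 control libraries and on 3 libraries from cells exposed for 24 h to 5 µM of the synthetic glucocorticoid prednisolone. The controls have no treatment in one label and a vehicle in another. All libraries come from a single cell line, the replicates are independent experiments per the series description, and peak lists cannot check the identity of the line. Of 13 samples, the IgG sample was not analysed here.

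TCF7L2 and LEF1 belong to the TCF/LEF family of DNA-binding proteins. Both carry a closely related high-mobility-group domain that recognises the same short sequence, and both bind beta-catenin, so that they act at the end of the canonical Wnt pathway. LEF1 is well known in immature lymphocytes and in leukaemia, and TCF7L2 in the intestine. Coordinates are on hg19, the build given in the submitters' processing notes. No sequence or gene annotation of that build was used here, so no region is assigned to a gene, and no region's sequence is shown.

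The 12 lists held 128863 to 395786 peaks, all with a −log10 p of at least 1.3, which is a p-value of 0.05. A member therefore lacks even a weak LEF1 call. Fold (height over the background that MACS2 modelled), −log10 p and −log10 q are the authors' own values for each peak. Where a region held several peaks of a list, the strongest is given. These values are set side by side between libraries only to show the data, and comparisons between libraries use ranks within each list.

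The strongest TCF7L2-only region lay at chr5:137672090-137675716. Its −log10 p was 598, 652 and 812 in the control libraries and 735, 595 and 576 in the prednisolone libraries (replicates 1, 2 and 3 in each), and its fold was 44.3, 54.1, 65.1, 61.9, 40.7 and 37.5 in the same order. It held rank 1, 2 or 3 in all 6 TCF7L2 lists, and the nearest LEF1 peak of any list was 10374 bp away. Its 6 summits lay within 76 bp of each other. A region of 10734 bp at chr19:42803455-42814188, the longest member, came next: it held rank 4 in each control list and ranks 3, 5 and 6 after prednisolone. Its fold was 31.2, 45.8 and 48.8, then 48.6, 26.5 and 26.8. Both regions stood at the head of the lists in both treatments.

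The next 4 by the worst of their 6 ranks were weaker. On chromosome 19, chr19:48280219-48283036 had folds of 22.6 to 47.6 and ranks of 52 to 97, and chr19:49621489-49622898 had folds of 12.4 to 20.6 and ranks of 74 to 99. On chromosome 1, chr1:11071555-11074098 had folds of 11.6 to 25.7 and ranks of 100 to 143. On chromosome 11, chr11:841707-843811 had folds of 16.6 to 33.8 and ranks of 76 to 144 with the nearest LEF1 peak 43935 bp away. In these 4 the summits of the 6 libraries lay within 44 to 108 bp of each other. The second longest member, chr19:49648654-49657296 with 8643 bp, had folds of 15.8 to 32.7 and lay 1638 bp from a LEF1 peak.

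Among the 10 strongest of the 9394 shared regions 2 were TCF7L2-only, among the 100 strongest 4, and among the 1000 strongest 79, or 7.9%. The median fold over the 6 lists was 5 or more in 46 members, or 10.95%, against 9.13% of the regions with LEF1. It was under 2 in 101 members, or 24.0%, against 2.53%. At a q-value of 0.05, 95 members, or 22.6%, had a passing peak in all 6 lists, against 12.9% of the regions with LEF1. Another 95 had one in no list, against 14.7%.

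The members fell into 2 groups by position, near long stretches without peaks and away from them. The 12 lists together left 27 spans of at least 1 Mb without any peak, between peaks or before the first peak of a chromosome. Most were about 3 Mb long with 1 per chromosome. As background, this assembly has unsequenced gaps of such a kind at centromeres and on short arms, and whether each span is such a gap was not checked. Within 2 Mb of such a span lay 119 members, or 28.3% of the 420, against 300 of the 8974 regions with LEF1, or 3.34%. The split at 2 Mb was chosen after the positions had been seen. These shares carry no test, and every test given below for regions near or away from the spans was added after that choice. Whether the peaks of both antibodies were called against the same control library is not given in the sources used here.

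**Figure D1:**
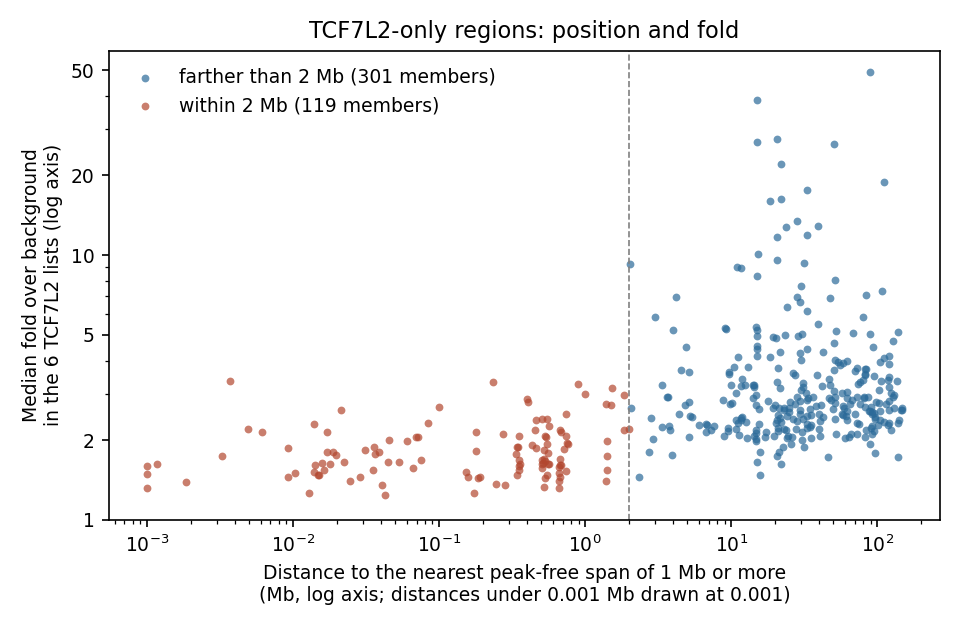
Each point is 1 of the 420 TCF7L2-only regions, with its distance to the nearest peak-free span of at least 1 Mb on the x axis (Mb, log axis) and its median fold over the 6 TCF7L2 lists on the y axis (log axis). The 119 members within 2 Mb of a span, left of the dashed line, all stay under a fold of 5, and the 46 members at a fold of 5 or more lie to its right.

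The members near a span had low folds. Their median fold over the 6 lists had a median of 1.74 (quartiles 1.54 and 2.08), and 84 of 119, or 70.6%, were under 2, while none reached 5. Their −log10 p was high all the same in several libraries, with medians of 4.43, 4.18 and 5.50 in the control lists and 10.2, 15.2 and 15 in the prednisolone lists. The median ranks of these members among the shared regions were 4849, 5134 and 4095 in the control lists. In the prednisolone lists they were 1422, 635 and 639, all better than the control ranks. Regions with LEF1 near a span had −log10 p medians of 3.95, 3.6 and 3.95 in the control lists and 4.06, 4.01 and 4.29 in the prednisolone lists. Their median ranks were 5534, 5965 and 5810 against 5053, 3963.5 and 3584, which did not overlap either. They had a median fold of 2.61 with 18.7% under 2. For the members near a span the distance to the nearest LEF1 peak was long, with a median of 15673 bp and a maximum of 144083 bp. The third longest member was among them, chr4:49106312-49112172 with 5861 bp and folds of 1.89, 1.73, 2.02, 1.71, 1.96 and 2.00. In 44 of the 119 the 6 summits lay within 100 bp of each other, or 37.0%, against 15.7% of the 300 regions with LEF1 near a span. No peak was removed here for lying in repeated or poorly mappable sequence. The part of such sequence in the values near the spans was not tested.

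Part of the members stood in runs. Taking members at most 50 kb apart as a run, 20 runs held 3 or more members and 117 members in all. Another 52 members stood in pairs and 251 stood alone. Runs among the regions with LEF1 were not counted. The largest run covered chr4:49093316-49201127 with 19 members and no region with LEF1. All 19 lay near a span. Next, also all near a span, were 12 members at chr10:42355483-42400707 with 3 regions with LEF1 between them, 10 at chr10:39078806-39140776 and 9 at chr2:89850255-89879958, both with no region with LEF1. Neighbouring members of a run share their surroundings, so the 119 are not 119 separate places. Chromosomes 10 and 4 held 33 and 27 of the 119, chromosome Y held 19 and chromosome 2 held 12. The largest run away from the spans, chr1:1590615-1656368, held 5 members with 4 regions with LEF1 between them. The runs named were picked for their size.

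**Figure D2:**
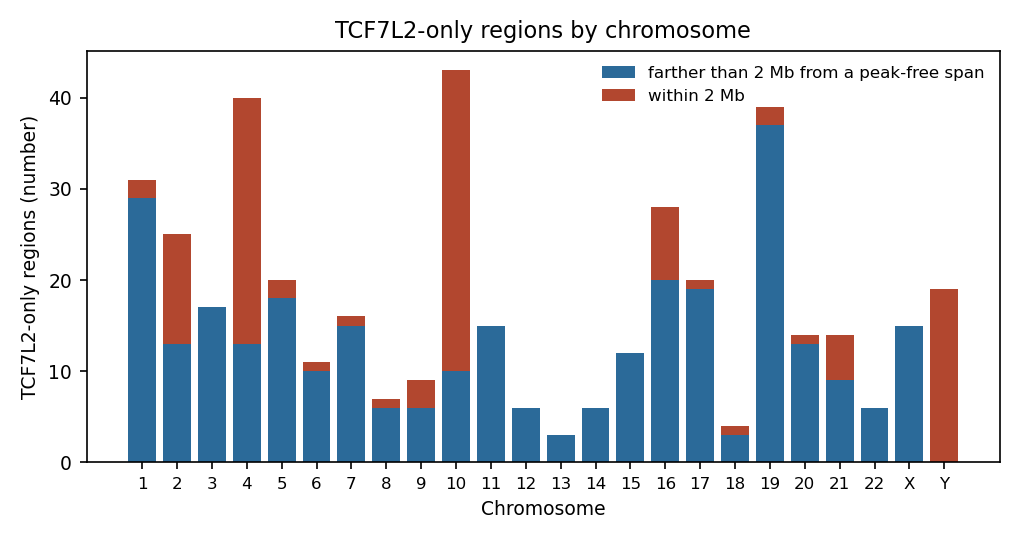
Bars give the number of TCF7L2-only regions on each chromosome, split into those within 2 Mb of a peak-free span and those farther away. Chromosomes 4 and 10 reach 40 and 43 mainly through members near a span, and chromosome 19 reaches 39 with 37 members away from them.

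The 301 members farther than 2 Mb from any span had a median fold of 2.76, against 3.07 for the 8674 regions with LEF1 that were equally far away. A median fold of 5 or more was reached by 46 of 301, or 15.3%, against 9.33%. No list gave a peak at a q-value of 0.05 in 84 of 301, or 27.9%, against 14.7%. Members were somewhat shorter, at a median of 1377 bp against 1574 bp. Whether the selection set this difference was not tested.

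The 46 members with a fold of 5 or more had summits at similar positions in the 6 libraries. The summits of the 6 libraries spanned a median of 116.5 bp (quartiles 71.5 and 180 bp), close to the 132 bp of the 809 regions with LEF1 at that fold. A q-value of 0.05 was passed in all 6 lists by 43 of the 46, or 93.5%, against 670 of the 809, or 82.8%. Chromosome 19 held 10 of the 46, and chromosomes 11 and 20 held 5 each. Of the 255 other members away from the spans, 18 passed that q-value in all 6 lists and 84 in none, and their summits spanned a median of 625 bp. Regions with LEF1 under a fold of 5 were not summarised in the same way, so these values stand without a comparison.

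Members away from the spans were unevenly spread. Chromosome 19 had 37, which is 10.8% of the 344 regions shared by all 6 TCF7L2 lists on it outside the spans. That share was 7.69% on chromosome 21, 7.58% on chromosome 16 and 5.56% on chromosome X, and it was lowest on chromosomes 13 and 12, at 1.32% and 1.37%, apart from chromosome Y with none among 21. Toward the ends of chromosomes the share was higher: 82 of 301, or 27.2%, lay within 5 Mb of the outermost peak of their chromosome, against 9.33% of the 8674 regions with LEF1. The share was 28.3% of the 46 strong members and 27.1% of the 255 others, against 10.5% of the 809 regions with LEF1 at a fold of 5 or more. Both measures were chosen after positions had been seen.

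Within each library the fold of members was set against that of the regions with LEF1. The selection used the presence of peaks and not their fold. A LEF1 peak may still go with TCF7L2 fold or region length, which was not tested. The test below uses the same regions in every library, so it measures only how repeatable the difference was between libraries. Members had a median fold of 2.35, 2.58 and 2.57 in the control lists and 2.60, 2.38 and 2.31 in the prednisolone lists, and regions with LEF1 had 3.19, 3.26, 3.43, 3.17, 2.82 and 2.70. The members' median was lower in 6 of 6 libraries, with a log2 ratio of −0.33 ± 0.09 (mean ± SD, n = 6; exact sign-flip test, two-sided, p = 0.031, the smallest possible, and 0.0625 after Benjamini-Hochberg adjustment over 2 measures). Against 4622 regions with LEF1 of matched length the log2 ratio was −0.28. Away from the spans it was −0.09, again below 0 in all 6 libraries. There it was −0.21, −0.11 and −0.14 in the control lists, and only −0.034, −0.030 and −0.012 in the prednisolone lists. For −log10 p the log2 ratio was 0.09 ± 0.23 (n = 6; exact sign-flip test, p = 0.3125), below 0 in control libraries 1 and 2 and above 0 in the other 4, and away from the spans it was −0.13 with all 6 libraries below 0.

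Whether prednisolone changed the standing of TCF7L2-only regions was asked with each list held to its 20000 strongest peaks. Of the 420 members, 218, 228 and 244 had such a peak in the control libraries and 264, 253 and 241 in the prednisolone libraries. The groups overlapped, since prednisolone replicate 3 lay below control replicate 3. The means were 230.0 ± 13.1 and 252.7 ± 11.5 (SD, n = 3 each), a difference of 22.7 members (exact permutation test, two-sided, p = 0.2, where 3 against 3 allow no less than 0.1). Over the 10 such comparisons made, a p of 0.1 becomes 0.125 after Benjamini-Hochberg adjustment, and none passed 0.05. For regions with LEF1 the mean was 61.0% ± 1.5 in the control libraries and 52.8% ± 5.5 after prednisolone (exact permutation test, p = 0.1). The difference between treatments was higher in members by 13.6 percentage points (p = 0.1 in an exact permutation test). Ranking by fold in place of −log10 p turned the difference to −20.0 (exact permutation test, p = 0.3).

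The same counts are given here by position. Near the spans 61, 66 and 78 of 119 members had a top peak in the control libraries and 100, 107 and 101 in the prednisolone libraries, which is 57.4% ± 7.34 against 86.3% ± 3.18 (SD, n = 3; exact permutation test, p = 0.1). The groups did not overlap. Away from the spans 157, 162 and 166 of 301 members had one in the control libraries and 164, 146 and 140 in the prednisolone libraries, and here the groups overlapped, at 53.7% ± 1.5 against 49.8% ± 4.15 (exact permutation test, p = 0.3). Compared with regions with LEF1 that were equally far away, these members stood lower by 7.73 percentage points in the control libraries. After prednisolone they stood lower by 2.78. The difference between treatments was thus higher in these members by 4.94 percentage points (exact permutation test, p = 0.1).

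**Figure D3:**
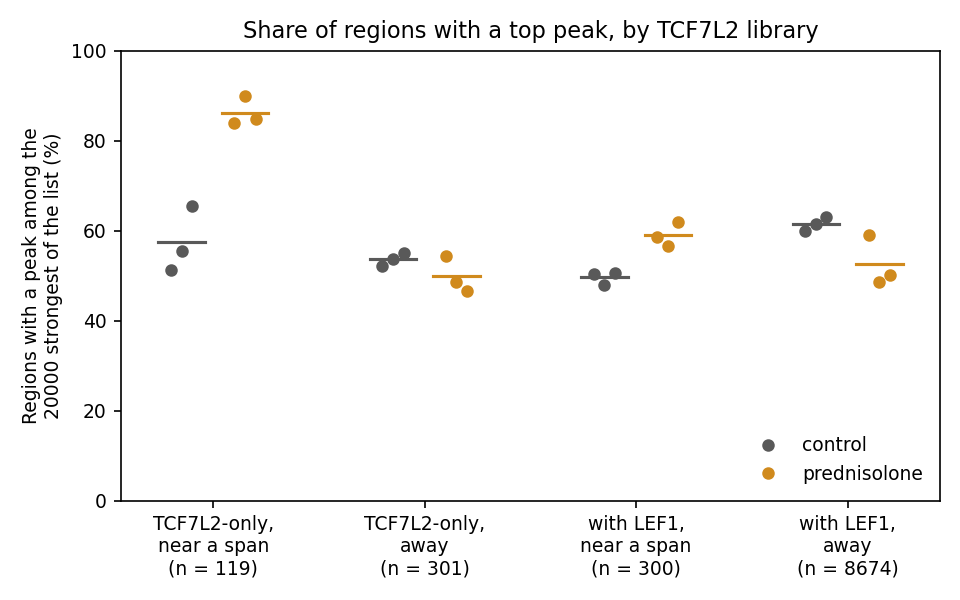
Points give the percentage of regions with a peak among the 20000 strongest of a TCF7L2 list, 1 point per library and a line at the mean of 3, for TCF7L2-only regions and regions with LEF1, near and away from peak-free spans. TCF7L2-only regions near a span lie at 51.3% to 65.5% in the control libraries and at 84.0% to 89.9% after prednisolone, and the treatments overlap for those away from the spans.

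Regions with LEF1 near a span had 49.7% ± 1.45 in the control libraries and 59.1% ± 2.69 after prednisolone (SD, n = 3; exact permutation test, p = 0.1). The difference between treatments was higher in members near a span by 19.4 percentage points, and a permutation test of that difference, exact and two-sided, gave p = 0.1. The share of all peaks of a list that lay within 2 Mb of a span was also higher after prednisolone, at 2.58% to 2.73% in the TCF7L2 control lists and 3.01% to 3.81% in the TCF7L2 prednisolone lists, while the LEF1 lists had 2.53% to 2.60% and 2.36% to 2.45%. The part of this shift in the members' result was not tested. The TCF7L2 control lists held 389886, 329941 and 337092 peaks in all, and the TCF7L2 prednisolone lists 317316, 395786 and 144091. The last, the shortest list, also had the highest share near a span, 3.81%. The part of list length was not tested.

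Libraries also differed in the length of their shortest peak, 193 to 201 bp in control 1 and prednisolone 2 and 3, and 158 to 167 bp in control 2 and 3 and prednisolone 1. The labels give no reason for this. Within these sets the number of members near a span with a top peak was higher after prednisolone by 43.0 and by 28.0, and for members away from the spans the differences were −14.0 and 0. Each set holds a single library of one treatment, so neither was tested alone.

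Ranks among the 9394 shared regions, a list of the same length in every library, were compared region by region. All 3 prednisolone ranks were better than all 3 control ranks in 101 members, or 24.0%, against 9.27% of all shared regions. All 3 were worse in 23 members, or 5.48%, against 9.12%. Near the spans the counts were 73 better, or 61.3%, and 0 worse of 119. Regions with LEF1 near a span had 74 better, or 24.7%, and 14 worse, or 4.67%, of 300. Ranked by fold, the members near a span had 59 better and 0 worse and the regions with LEF1 there had 58 and 17, while 8.84% and 8.02% of all shared regions ranked better and worse. Away from the spans the counts by −log10 p were 28 better and 23 worse of 301, which is 9.30% and 7.64% and near the share over all shared regions. Among the 46 strong members away from the spans 3 ranked better and 7 worse, or 6.52% and 15.2%, against 9.52% and 14.6% of the 809 regions with LEF1 at that fold. No single region can pass a threshold of 0.05 with 3 libraries against 3.

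The member that gained most in rank lay at chr10:42398152-42399391, 42669 bp from a peak-free span. Its −log10 p was 2.02, 1.56 and 3.02 in the control libraries and 10.9, 25.8 and 52.3 after prednisolone, while its fold went from 1.10, 1.09 and 1.14 to 1.34, 1.47 and 1.67. Next came chr4:49646488-49647274, with −log10 p of 1.47, 1.96 and 1.38 against 4.97, 12.1 and 9.09, and chr16:33898713-33899920, with 1.5, 1.37 and 2.57 against 12.1, 4.46 and 6.96. All 3 lay near a span, and their folds stayed between 1.09 and 2.44 in all 6 libraries.

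The members that lost most in rank lay away from the spans and had ordinary folds. At chr19:10400031-10400572 the −log10 p was 10.8, 8.40 and 14.8 in the control libraries and 3.21, 3.61 and 2.67 after prednisolone, and the fold was 4.23, 4.06 and 5.51 against 2.42, 2.37 and 2.02. At chr12:133136650-133137823 the fold was 2.96, 2.98 and 4.2 against 2.09, 1.91 and 1.53, and at chr15:41952710-41953849 it was 2.85, 2.63 and 3.05 against 2.07, 1.52 and 1.60. These peaks reached a q-value of 0.05 in 2 or 3 of the 6 lists.

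**Figure D4:**
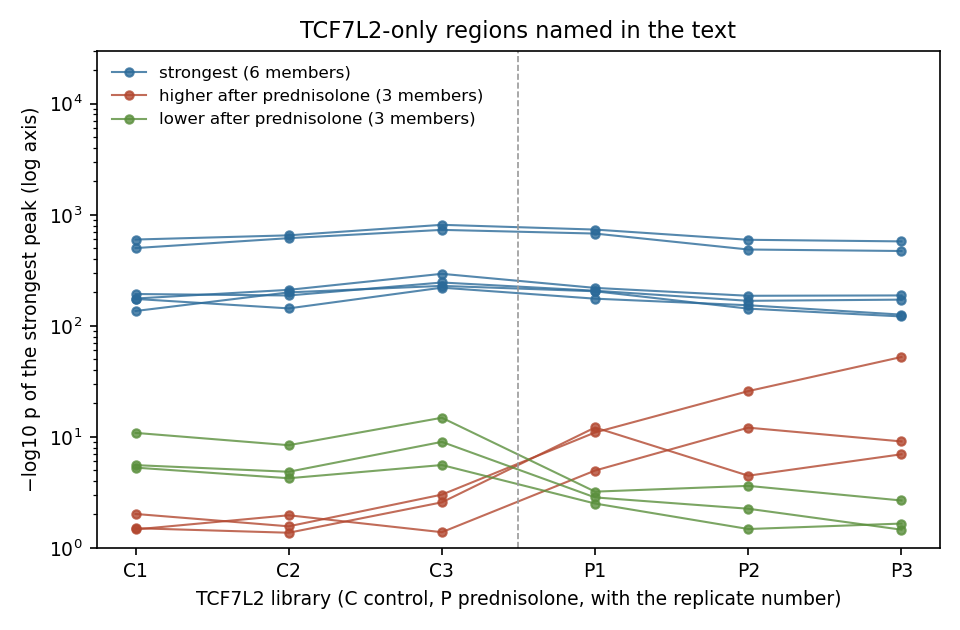
The −log10 p of the strongest peak (log axis) is shown in each TCF7L2 library for 12 TCF7L2-only regions, with a line joining the values of 1 region. The 6 strongest stay above 100 in all libraries, the 3 that gained most in rank lie at 4.46 to 52.3 after prednisolone, and the 3 that lost most lie between 1.46 and 3.61.

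Some regions lay close to the edge of the selection, and the 3 named on either side were picked for that. Just inside it, chr8:28403404-28404955 lay 4 bp from a LEF1 peak, chr4:2390486-2393079 lay 7 bp away and chr16:2826432-2828579 lay 36 bp away, with median folds of 2.63, 3.23 and 3.01. Just outside, chr19:32836196-32837498 met a LEF1 peak of a single list by 9 bp, chr16:2801516-2803517 by 12 bp and chr11:64700806-64702421 by 26 bp, with median TCF7L2 folds of 3.90, 2.69 and 2.41. Those LEF1 peaks had a −log10 p of 1.35, 1.75 and 1.97. In all, 198 of the shared regions met a LEF1 peak in 1 list only, with a median LEF1 −log10 p of 2.17, and 7557 met one in all 6. For 2, 3, 4 and 5 lists the counts were 209, 221, 319 and 470, against the 420 members with none. The median fold over the 6 TCF7L2 lists had a median of 2.48 in members and 2.97 in the regions met by 1 LEF1 list. Of the 420 members, 8 lay within 100 bp of a LEF1 peak, 154 within 2000 bp and 312 within 10000 bp. The LEF1 lists held 128863 to 389025 peaks each. How many positions taken at random would lie as close was not tested.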

How the data were processed

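The authors deposited 1 MACS2 peak list per sample, called separately for each, on hg19 per the submitters' processing notes. The aligner, any control library, the handling of duplicates and the version of MACS2 are not given in the sources used here. For each peak the deposited lists give the fold ratio over background, the −log10 p-value, the −log10 q-value, a summit offset and an integer score that was not used. Read depth is unknown, no interval on a share was computed, and 3 libraries per group set the precision. At most 0.0737% of the intervals were identical between any 2 lists of an antibody.

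Regions were made and compared in Python 3.11.15 (NumPy 2.4.6, pandas 2.3.3). Bedtools 2.31.1 found the same 420 members, and the scripts were tested on simulated lists. Peaks were ranked by −log10 p, then fold, then position. Regions named are the 6 members with the best worst rank, the 3 with the largest mean rank change in each direction among those whose treatments did not overlap, the 3 longest, and the 3 nearest the edge of the selection on either side. The peak-free spans, the run and chromosome-end measures and the fold classes were set after seeing the data, and the members, lists and tests were chosen with earlier results of these data known. The planned sequence and gene comparisons, with the Wnt, glucocorticoid and B-lineage gene lists, were not run, since no hg19 reference was used here. Alternatives covered overlap, distance, peak thresholds, list length, ties, ranking by fold, each library left out and the replicate number as a block.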

Additional observations from a re-analysis of the deposited data

How the results depend on the processing

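The number of TCF7L2-only regions, 420 or 4.47% of the shared regions, became 266 (2.83%) when no LEF1 peak could lie within 2000 bp. It was 661 (7.04%) with the LEF1 control lists alone. With TCF7L2 peaks at a −log10 p of at least 2 it was 234 (4.29% of the regions then shared). At a −log10 q of at least 2 it was 86 (8.62% of the regions then shared). It was 371 to 533 under the other settings with all libraries and 534 with the LEF1 prednisolone lists alone. Leaving out 1 TCF7L2 library gave 520 to 787 (4.51% to 5.94%), the latter without prednisolone replicate 3, which has the shortest list. Leaving out 1 LEF1 library gave 431 to 493 (4.59% to 5.25%). The difference of 22.7 members with a top peak reversed when ranked by fold (−20.0) and, in a setting chosen after seeing the data, without the members near a peak-free span (−11.7). It was 34.3 with only those members, and 16.7 to 29.7 with 1 library left out.

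Of the 101 and 23 members that ranked better and worse after prednisolone, 28 and 23 were left without the members near a span, a setting also chosen after seeing the data. With 1 library left out the counts were 122 to 141 and 30 to 45, the latter over 1.5 times the 23 without control replicate 1 or 2 or prednisolone replicate 1 or 3, since fewer libraries separate more easily (13.5% to 15.9% of all shared regions). With the replicate block, that is the same direction in all 3 replicate numbers, they were 139 and 38, against 16.3% of all shared regions in each direction, and the 22.7 members gave p = 0.5 by exact sign flips, where 3 pairs allow no less than 0.25. Correlations computed to look for pairing were no higher between same-numbered control and prednisolone libraries than between differently numbered ones. They were −0.0926 to −0.0285 for the same number and −0.0239 to 0.0679 for different numbers. These values were read only against each other, and not as a measure of how alike control and prednisolone libraries were. The log2 difference in −log10 p, 0.09, was 0.04 to 0.15 with 1 library left out. It reversed in the control libraries alone (−0.10) and away from the spans (−0.13, exact sign-flip test, p = 0.031). This last setting was chosen after seeing the data, and its p is unadjusted and the smallest that 6 libraries allow. With the same regions in every library, it measures only how repeatable the difference was. The log2 difference in fold was −0.35 to −0.30 with 1 library left out, where 5 libraries allow no p below 0.0625 in the exact test. It kept its sign under each alternative run. Read depth is unknown, and its part in these values was not tested.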
